A study of Mus musculus with 71 samples.

Results

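The p0-p1 regions arising by day 11 are 5321 numbered intervals of open chromatin, out of 155738 intervals measured, or 3.42%. They were chosen from wild-type (WT) libraries only. For each day a difference was formed as the group mean of log2(normalised reads + 5) in p0-p1 minus the higher of the same means in p2 and pMN, and it is called the p0-p1 difference from here on. A region was taken when its p0-p1 difference was at least 1 on day 11 and under 0.3 on day 5, and when pMN did not exceed p0-p1 on day 5 by 0.8 or more. Of 7657 intervals with a WT day 11 difference of at least 1, the day 5 conditions set aside 1688 that were already higher in p0-p1 on day 5 and 648 that were higher in pMN on day 5. The WT values of days 5 and 11 therefore describe the choice, and tests were run only on MUT libraries and on WT libraries of days 7 and 9.

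The libraries came from mouse embryonic stem cells steered in culture to progenitors of the ventral spinal cord, with bFGF first, then the GSK3β inhibitor CHIR99021, then retinoic acid with the Smoothened agonist SAG, and SAG alone from day 5. At each collection the cells were fixed, transposed, stained for marker proteins inside the cell and separated by sorting, so each library is a sorted pool (CaTS-ATAC) of the p0-p1, p2 or pMN population. WT has 38 libraries and MUT 33, taken on days 5, 7, 9 and 11, and they form 7 groups of 2 and 19 of 3. The labels used here do not name the gene altered in MUT. All MUT groups were the NFIAn fraction, read here as cells sorted without the protein NFIA. WT was NFIAn on days 5 and 7, NFIAn for p0-p1 on day 9 and both fractions for p2 and pMN on day 9, and NFIAp, read as cells with NFIA, on day 11. Genotype and NFIA fraction thus change together on day 11, and day and fraction change together between WT days 9 and 11, and these cannot be told apart.

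The ventral neural tube is divided along its dorsal to ventral axis into progenitor domains by a gradient of Sonic hedgehog. The p0, p1 and p2 domains give rise to ventral interneurons, and pMN, which expresses Olig2, gives rise to motor neurons and later to oligodendrocyte precursors. NFIA is a transcription factor known for its part in the switch of these progenitors from making neurons towards making glia. ATAC-seq counts the cuts that the Tn5 transposase makes in accessible DNA, so a higher value means that a region was cut more often in the pool. In a sorted pool, more open DNA in each cell and more cells with an open region cannot be told apart.

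Each library held 20034731 to 31315134 reads in the intervals, with a median of 24375871. The intervals carry numbers without positions, gene names or sequence, so the sorted populations could not be checked against marker genes and no regulatory sequence can be shown. In 1 run of 5 consecutive intervals, the library labelled MUT day 7 pMN replicate 3 held 213 reads where the other MUT libraries held 0 or 1. The library labelled WT day 7 pMN replicate 3 held 0 there, where the other WT libraries held 148 to 519. The WT day 9 p2 NFIAp replicate 2 library lay with pMN. Most counts and day 7 values that use these 3 libraries are given with and without them where they stand. Counts in the opposite direction are given only with them. Whether replicates came from separate cultures is not stated in the labels. The p-values thus reflect how far these libraries differ among themselves, which may be technical. In the limma fit each interval has 1 spread that is shared by all groups. The day 11 p0-p1 libraries varied more among themselves than those of p2 and pMN, as given below. Standard errors that involve them may therefore be too small.

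Most of the regions were weakly accessible on day 5 and stronger in p0-p1 on day 11. Their median of the mean value over all libraries was 13.6 normalised reads, against 31.8 for all intervals, and 1118 of the 5321 lay at or above the latter. On WT day 5 the median region had 6.21 normalised reads in p0-p1, against 6.70 for p2 and 5.92 for pMN. On WT day 11 it had 54.1 in p0-p1, against 8.73 for p2 and 8.61 for pMN. The median p0-p1 difference of the members went from -0.12 on day 5 to 1.62 on day 11, where the rule sets its lower end, and the largest was 4.58. No test applies to these values.

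The WT day 11 p0-p1 libraries did not carry the regions equally. The median over the regions of log2(normalised reads + 5) was 6.51 in replicate 1, 5.58 in replicate 2 and 5.20 in replicate 3. All 6 WT day 11 libraries of p2 and pMN lay between 3.64 and 3.85, so the p0-p1 libraries stood above them without overlap. The regions held 2.57% of all signal in p0-p1 replicate 1, 1.34% in replicate 2 and 1.02% in replicate 3, and 0.271% to 0.335% in the p2 and pMN libraries. Replicate 1 was the highest of the p0-p1 libraries in 86.9% of the regions, against 40.1% of all intervals. In MUT the p0-p1 library that carries number 1 was also the highest, in 80.2% of the regions against 38.6% of all intervals. Replicate 1 was the highest in both genotypes in 74.6% of the regions and in 20.6% of all intervals. Without WT replicate 1 the rule found 4265 regions, of which 4062 were among the 5321, or 76.3% of these and 95.2% of those found without it.

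**Figure D1:**
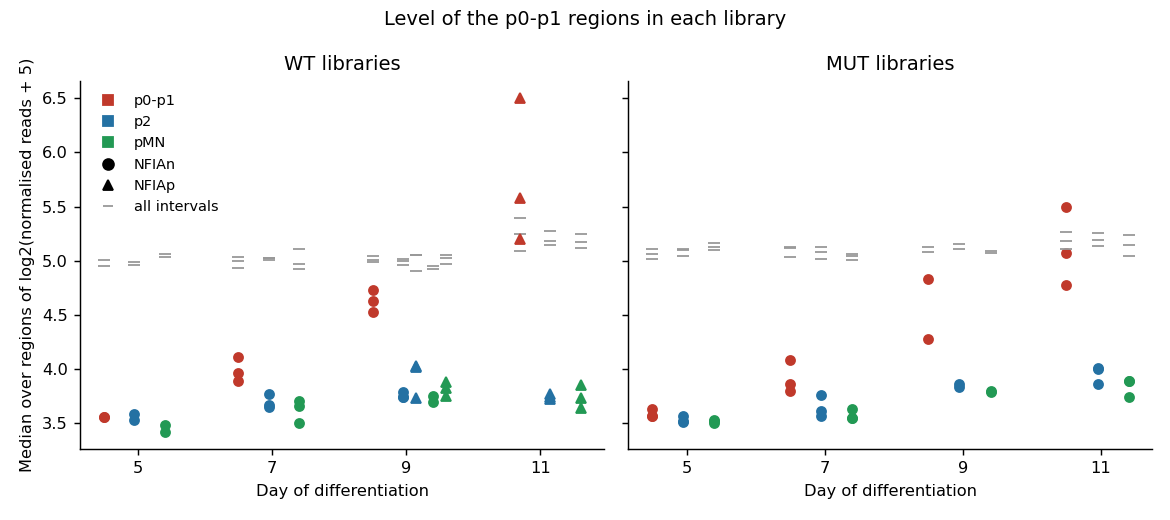
Each point is 1 library and gives its median over the 5321 regions of log2(normalised reads + 5), by day, with WT on the left and MUT on the right, colour for the population, circles for NFIAn and triangles for NFIAp, and grey bars for the median over all intervals. The p0-p1 points leave the others from day 7 onwards and reach 6.51 in 1 WT library on day 11, while p2 and pMN stay near 4 or below on all days.

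The MUT libraries, which played no part in the choice, carried a difference in the same direction on day 11. A region was called there when p0-p1 exceeded both p2 and pMN by at least 1 on the log2 scale, each at a Benjamini-Hochberg adjusted p under 0.05 in limma over all 155734 intervals tested, in 1 fit to all libraries. All 5321 regions passed the filter on low values. On MUT day 11, 2482 regions, or 46.6%, were called higher in p0-p1, against 3.21% of all intervals, and 0 were called in the opposite direction, against 1.63% of all intervals. edgeR's quasi-likelihood test on reads recovered from the table called 3102 higher, or 58.3%, against 4.49% of all intervals, and 0 lower. With a pseudocount of 20 in place of 5 limma called 778, or 14.6%, against 1.06% of all intervals. At the pseudocount of 5, limma's unadjusted p was under 0.05 for 4036 regions, whatever the direction. Counts at an unadjusted p, here and below, have no share of all intervals beside them and are not read as an excess in the regions. The same holds for the edgeR counts of the other comparisons. A p0-p1 difference above 0 was found in 5165 regions, or 97.1%, against 36.7% of all intervals. The median difference was 0.95, with quartiles of 0.60 and 1.34, against -0.11 for all intervals. Every MUT p0-p1 library lay above every p2 and pMN library in 70.5% of the regions, against 10.7% of all intervals. The library medians over the regions were 5.50, 5.07 and 4.78 in MUT day 11 p0-p1 and 3.74 to 4.01 in MUT day 11 p2 and pMN.

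The MUT difference was larger where the WT one was larger. Of 2318 regions with a WT day 11 difference from 1 to under 1.5, 23.4% were called on MUT day 11. The share was 41.6% of 1309 regions from 1.5 to under 2, 78.6% of 1398 from 2 to under 3, and 99.7% of 296 at 3 or more. Across the 5321 regions the WT and MUT day 11 differences had a Pearson r of 0.66, against 0.75 over all intervals. The relation is thus not particular to the regions. The value of 0.66 is a description over regions that share their read depth and were cut off at 1 on the WT side. No share of all intervals was set beside the called shares by size of the WT difference. The level in MUT p0-p1 was lower than in WT p0-p1 on day 11, with a median difference of -0.73 (quartiles -1.05 and -0.26) against 0.03 for all intervals. The WT side of that value was used to choose the regions, so it has no test, and the NFIA fraction differs between the genotypes as well.

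**Figure D2:**
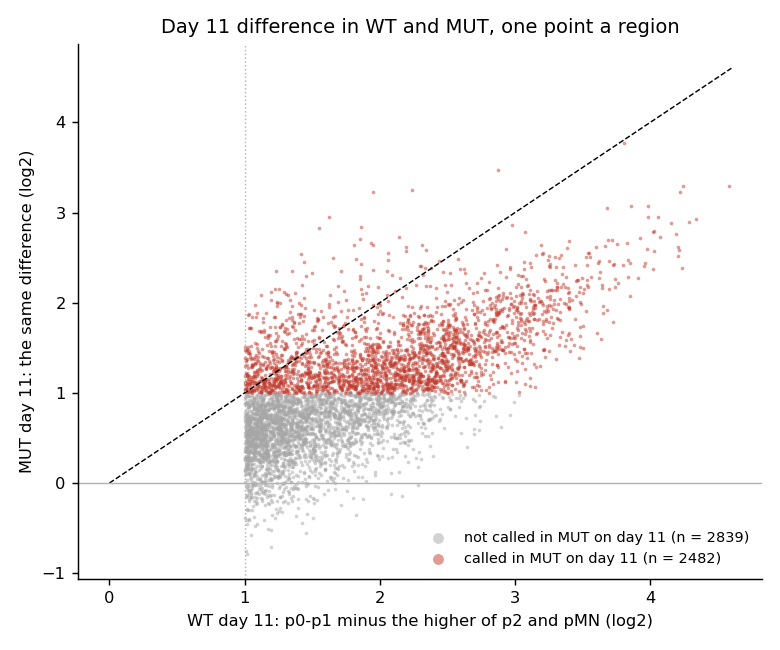
Each point is 1 region, with its WT day 11 p0-p1 difference on the horizontal axis and the same difference in MUT on the vertical axis, both in log2 units, in red where it was called on MUT day 11 (2482 regions). Most points lie below the dashed line of equal differences and above 0, and nearly all regions above 3 in WT are red.

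The regions with the largest MUT day 11 differences held few reads in p2 and pMN. They were taken from the 1118 regions whose mean over all libraries was at or above the median of all intervals. Only regions called on MUT day 11 whose p0-p1 libraries there all lay above all p2 and pMN libraries were considered. Their lack of overlap on MUT day 11 was thus set by the choice. Interval_104169 had 289, 288 and 428 normalised reads in the MUT day 11 p0-p1 libraries. It had 13.1, 24.8 and 22.0 in p2 and 19.6, 14.7 and 22.4 in pMN. The p0-p1 libraries were far above the others without overlap, by 3.78 ± 0.37 on the log2 scale (SE of limma's fit, adjusted p = 5.6e-12). This region was already open on MUT day 5 in p0-p1, at 151, 99.1 and 143, and in pMN, at 134, 134 and 126 and lower in p2, at 25.8, 38.7 and 31.0. From day 5 to day 11 in MUT it fell by 2.52 ± 0.37 in pMN (limma adjusted p = 1.5e-08) and rose by 1.32 ± 0.37 in p0-p1 (limma adjusted p = 0.0012).

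Interval_143708 started low everywhere. On MUT day 5 it had 7.95, 15.7 and 7.36 normalised reads in p0-p1, while the p2 libraries held 10.7, 3.41 and 2.73 and the pMN libraries 2.81, 5.40 and 7.14. On MUT day 11 it had 175, 140 and 88.7 in p0-p1, while the p2 libraries held 7.04, 3.82 and 19.3 and the pMN libraries held 5.45, 6.86 and 7.46. The day 11 p0-p1 libraries were above all others without overlap, by 3.29 ± 0.38 (limma adjusted p = 1.1e-09). In WT it had the largest day 11 difference of these 1118 regions, 4.58, with 718, 345 and 181 normalised reads in p0-p1 and 3.71 to 14.6 in p2 and pMN. It lies in 1 of 3 blocks of consecutive numbers in which whole stretches of intervals shift together, here by replicate, and 667 of the 5321 regions, or 12.5%, lie in such blocks, against 14.0% of all intervals. The part of these shifts in the result was not tested for single regions, and leaving the blocks out changed the MUT day 11 count by less than 1.5 times.

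Interval_137564, in the same block, had 234, 159 and 125 normalised reads in MUT day 11 p0-p1 and 13.1 to 29.4 in p2 and pMN, a difference of 2.76 ± 0.32 (limma adjusted p = 6.2e-10). Interval_68480, outside the blocks, had 184, 167 and 219 in MUT day 11 p0-p1, while the p2 libraries held 22.1, 17.2 and 42.2 and the pMN libraries held 16.3, 21.6 and 26.1, a difference of 2.67 ± 0.27 (limma adjusted p = 2.1e-11). For both, the p0-p1 libraries did not overlap the others, which the choice required. In Interval_68480 the MUT difference exceeded the WT one of 1.93, where p0-p1 had 116, 99.7 and 251 and p2 had 33.0, 30.3 and 38.7. Interval_114510, which had the fourth largest WT difference of the 1118, 3.51, had 540, 185 and 123 in WT day 11 p0-p1 and 138, 92.2 and 56.4 in MUT day 11 p0-p1, while p2 and pMN held 9.40 to 19.6 in both genotypes. Its MUT difference was 2.11 ± 0.29 (limma adjusted p = 5.6e-08).

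**Figure D3:**
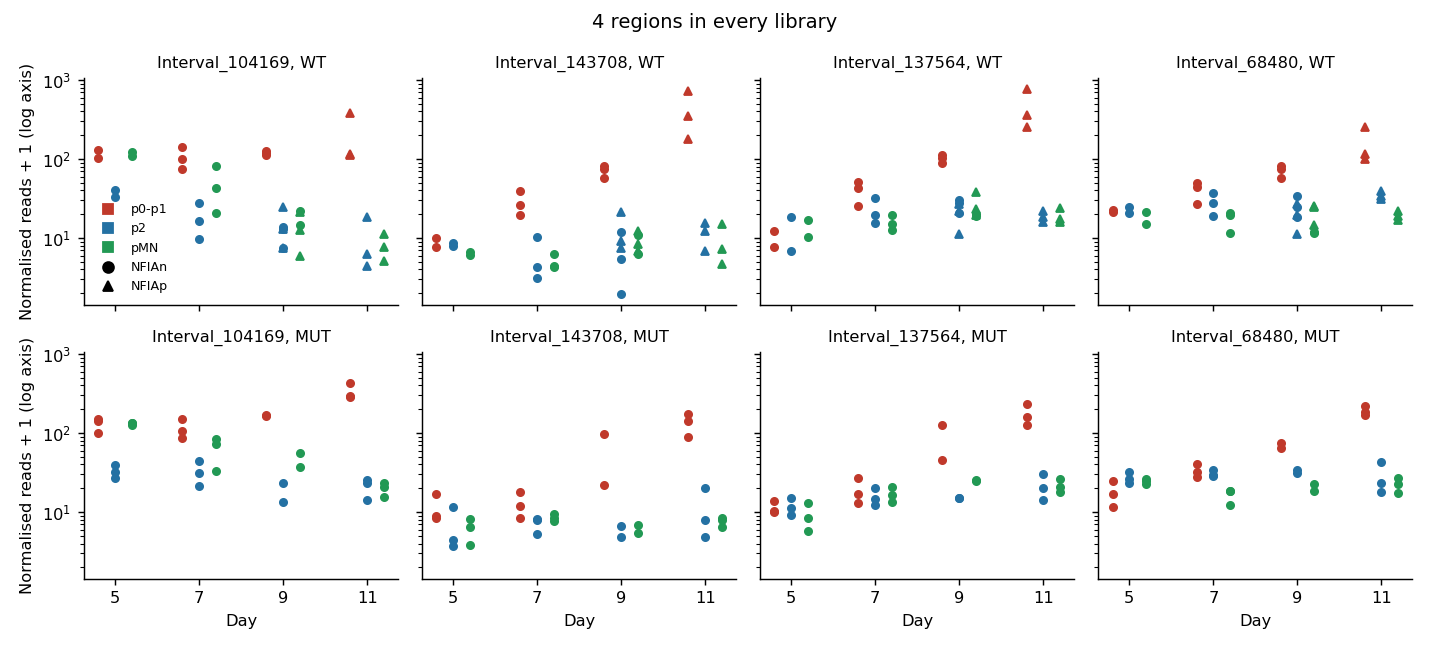
Normalised reads plus 1 on a log axis in every library, by day, for 4 regions. They have the largest MUT day 11 difference among those called there without overlap and at or above the median level. WT is above and MUT below, with colour for the population, circles for NFIAn and triangles for NFIAp. Interval_104169 is open in p0-p1 and pMN on day 5 and is lost from pMN, while the other 3 regions start low in all populations and rise in p0-p1.

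The difference appeared step by step between days 5 and 11 in both genotypes, though the MUT day 9 count depended strongly on p0-p1 replicate 2. On MUT day 5, 3 regions, or 0.0564%, were called higher in p0-p1, which is below the 0.796% of all intervals, and 5, or 0.0940%, were called lower in it, against 2.25%. The day 5 conditions of the rule bear on this low start, so it is no separate result. Of the 1688 intervals set aside as already higher on WT day 5, 18.0% were called on MUT day 5. On day 7 the counts were 76 regions, or 1.43%, in MUT against 0.87% of all intervals, and 156, or 2.93%, in WT against 0.706% of all intervals. The MUT share lay close to the background on that day. On day 9 they were 553, or 10.4%, in MUT against 1.18% of all intervals, and 1127, or 21.2%, in the WT NFIAn fraction against 1.67% of all intervals. In the opposite direction there were 2 regions on MUT day 7 against 0.798% of all intervals, 1 on WT day 7 against 0.826%, and 0 on day 9 in either genotype, where the backgrounds were 0.367% in MUT and 0.204% in WT and edgeR also gave 0. At an unadjusted p under 0.05 limma had 1630 regions on MUT day 9 and 2505 on WT day 9, whatever the direction and without a background share. Without the 3 libraries that go against their labels or neighbours, the day 7 counts were 69 in MUT and 157 in WT, against 0.852% and 0.724% of all intervals.

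The medians moved in the same steps. For the WT days that chose the regions, every p0-p1 library lay above every p2 and pMN library in 4.34% of the regions on day 5 against 16.6% of all intervals, and in 95.2% on day 11 against 11.7%, and nothing is read from these shares. The median p0-p1 difference of the regions was 0.13 on WT day 7 and 0.58 on WT day 9, and in MUT it was -0.09, 0.09, 0.47 and 0.95 on days 5, 7, 9 and 11. The median over all intervals stayed between -0.13 and -0.08 on these days in MUT. Every p0-p1 library lay above every p2 and pMN library in 13.7% of the regions on WT day 7 against 5.76% of all intervals, and in 57.3% on WT day 9 against 9.98%. Without the 3 doubted libraries the day 7 medians were 0.12 in WT and 0.08 in MUT, and the day 7 shares were 15.4% against 6.62% in WT and 12.6% against 8.46% in MUT. In MUT this held for 4.25% against 8.58% on day 5, 11.2% against 7.68% on day 7 and 51.3% against 13.6% on day 9. The MUT day 9 groups have 2 libraries each, and the count of 553 fell to 60 without p0-p1 replicate 2, to 225 or 237 without either p2 library and to 344 or 350 without either pMN library. Each of these fits leaves 1 library in a group, and no share of all intervals stands beside its count. An excess in the MUT day 9 count is therefore not shown without p0-p1 replicate 2. The medians over the regions in the 2 MUT day 9 p0-p1 libraries were 4.28 and 4.84, both above the 3.78 to 3.86 of p2 and pMN. They differ by more than the 3 WT day 9 libraries at 4.73, 4.53 and 4.63. On the other days the MUT day 7 count was 41 without p0-p1 replicate 3, the WT day 7 count 249 without p0-p1 replicate 1 and 69 without replicate 3, and the WT day 9 count 692 without pMN replicate 1. The 3 regions of MUT day 5 became 1 to 9 when 1 library was left out.

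**Figure D4:**
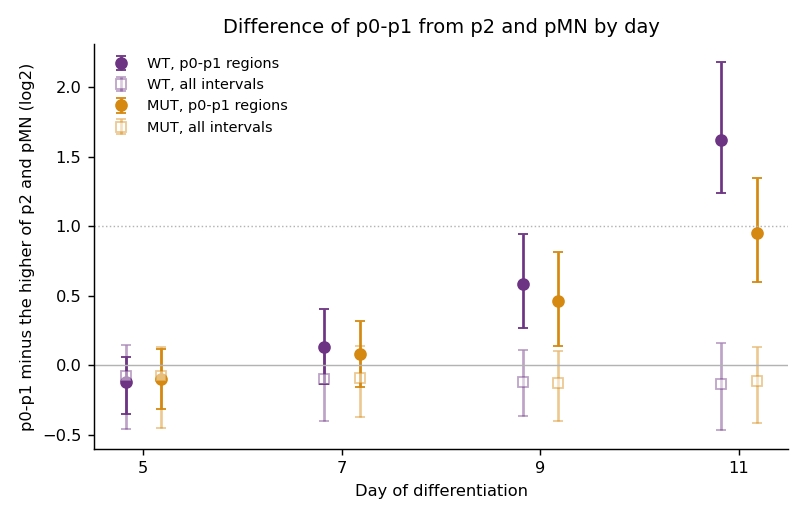
Median (points) and quartiles (bars) over regions of the p0-p1 difference in log2 units by day, for the 5321 regions (filled circles) and all intervals (open squares), in WT (purple) and MUT (orange). The regions leave the background between days 5 and 9 in both genotypes and reach medians of 1.62 in WT, where the rule requires at least 1 (dotted line), and 0.95 in MUT.

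Most regions called early were called again, as were most intervals of any kind. Of the 553 regions called on MUT day 9, 488 were called on MUT day 11, which is 88.2% of the day 9 list and 19.7% of the day 11 list. Among all intervals called on MUT day 9, 67.2% were called on MUT day 11. Of 156 called on WT day 7, 137 were called on WT day 9, or 87.8% of the former and 12.2% of the latter, and among all intervals called on WT day 7 the first share was 57.5%. Without the 3 doubted libraries these shares were 86.6% and 56.7%. The day 9 lists of the genotypes shared 439 regions, 39.0% of the WT and 79.4% of the MUT list, where the lists over all intervals shared 46.0% and 65.1%. WT day 9 and MUT day 11 shared 946 regions, 83.9% of the first and 38.1% of the second, and of all intervals called on WT day 9, 69.0% were called on MUT day 11. In all, 2715 regions, or 51.0%, were called in at least 1 of the comparisons on MUT days 7, 9 and 11 and WT days 7 and 9, against 4.5% of all intervals. On all of WT day 9, MUT day 9 and MUT day 11, 409 were called, or 7.69%, against 0.625% of all intervals, and 2606 were called in none of the 5. Without the 3 doubted libraries the counts were 2727 in at least 1 of the 5 and 433 in those 3. The differences between these shares were not tested.

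The regions with the largest differences on WT day 9 were of both kinds seen above. Interval_143708 had 80.8, 57.1 and 73.1 normalised reads in WT day 9 p0-p1, 0.931, 4.39 and 10.9 in NFIAn p2, and 5.29 and 9.97 in NFIAn pMN, a difference of 2.59 ± 0.42 (limma adjusted p = 5.3e-06). Interval_104169 had 117, 112 and 125 in p0-p1 and 6.52 to 20.9 in NFIAn p2 and pMN, a difference of 2.48 ± 0.41 (limma adjusted p = 6.1e-06). Both stood above without overlap. Interval_20322 had 80.8, 45.3 and 65.2 in p0-p1 and 4.99 to 12.7 in NFIAn p2 and pMN, a difference of 2.13 ± 0.34. Its difference had already been called on day 7, at 1.48 ± 0.34 in WT (limma adjusted p = 0.0006) and 1.01 ± 0.34 in MUT (limma adjusted p = 0.021). Without the 3 doubted libraries these were 1.35 ± 0.38 (limma adjusted p = 0.0063) and 1.09 ± 0.38 (limma adjusted p = 0.031). It lies in the block of consecutive intervals that are lower in MUT. Interval_76493 had 81.8, 64.3 and 63.2 in WT day 9 p0-p1 and 8.38 to 16.0 in NFIAn p2 and pMN, a difference of 2.09 ± 0.41, after 18.4, 18.1 and 15.4 in p0-p1 on day 7. On day 11 in WT, Interval_20322 was also raised in pMN, at 85.9, 45.6 and 45.5, against 4.74 and 6.15 on day 5, while p0-p1 stood at 498, 218 and 145.

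The regions reached their WT day 11 pattern by 4 courses, named by changes of at least 1 in log2 group means between WT days 5 and 11. Rises in p0-p1 were split by whether p2 or pMN rose as well. The kept and closing courses were set by p0-p1 alone. The grouping describes the WT values that chose the regions. In 3287 regions, or 61.8%, p0-p1 rose and neither p2 nor pMN did, with a median level that went from 4.52 to 48.3 normalised reads in p0-p1 and from 5.11 to 6.08 in p2. In 1088 regions, or 20.4%, p2 or pMN rose as well, with medians from 5.07 to 89.0 in p0-p1 and from 5.04 to 19.3 in p2. In 791 regions, or 14.9%, p0-p1 kept its level, at medians of 35.5 and 44.3, while p2 went from 34.6 to 12.8 and pMN from 29.4 to 11.0. Both p2 and pMN fell by at least 1 in 339 of these 791. In the last 155 regions, or 2.91%, all 3 populations lost accessibility and p0-p1 lost less, at medians of 164 and 44.1, against 171 and 14.8 in p2 and 123 and 11.3 in pMN.

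The same 4 sets were then counted in MUT, where 24.1% of all intervals rose in p0-p1, 17.4% fell in it and 3.21% were called on day 11. Of the regions that rose in WT p0-p1 alone, 74.3% rose in MUT p0-p1 from day 5 to day 11 and 14.8% rose in MUT p2 or pMN, and 53.3% were called on MUT day 11. Of those that rose in another population too, 94.8% rose in MUT p0-p1 and 66.3% in MUT p2 or pMN, and 41.4% were called on MUT day 11. The background for a rise in MUT p2 or pMN was 26.3% of all intervals. Of the regions that p0-p1 kept in WT, 35.5% fell in both MUT p2 and MUT pMN, against 13.4% of all intervals, and 28.4% were called on MUT day 11. In MUT p0-p1 12.0% of them rose and 14.7% fell, both below the shares of all intervals. Of the regions that closed in WT p0-p1, 100% fell in both MUT p2 and MUT pMN, 88.4% fell in MUT p0-p1, and 34.8% were called on MUT day 11. Median levels in MUT p2 on day 11 were 18.8 normalised reads in the kept regions and 23.7 in the closing ones. The WT medians were 12.8 and 14.8, but the rule chose regions with WT p2 below p0-p1 on day 11. The NFIA fraction differs as well, so no genotype difference is read from these values.

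**Figure D5:**
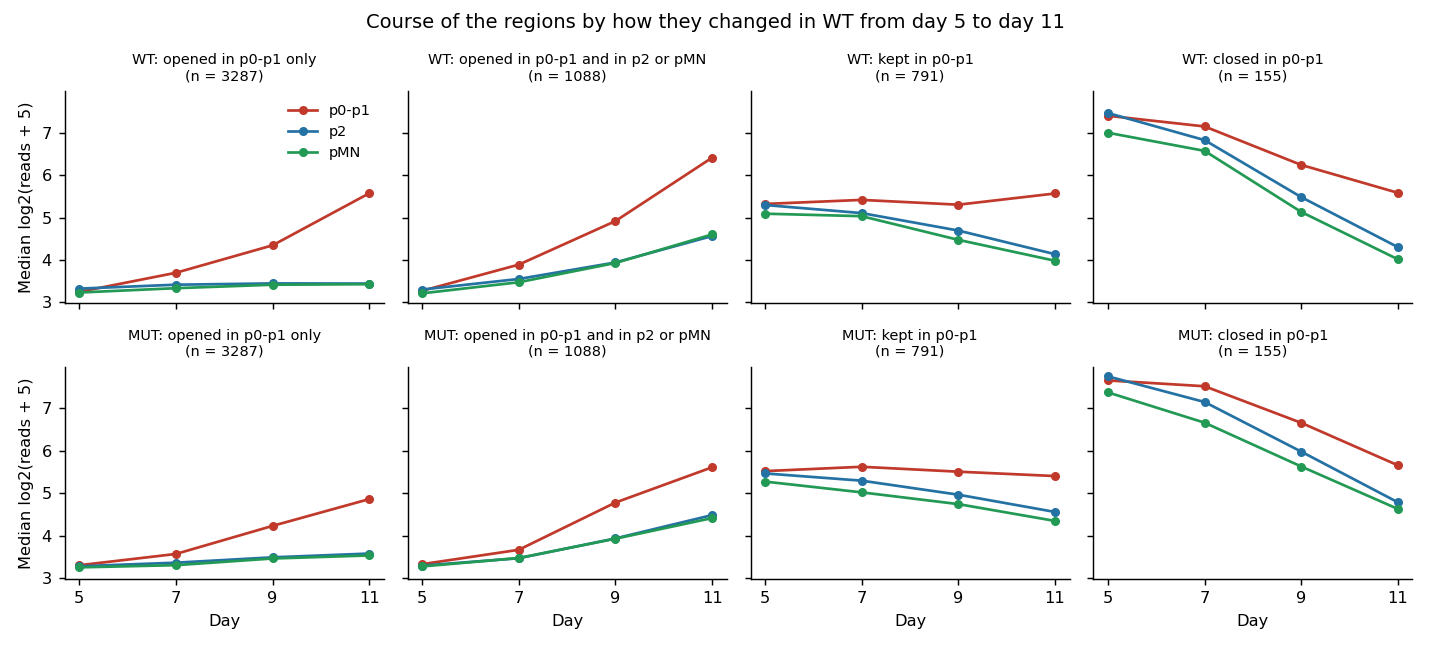
Median over regions of the group mean of log2(normalised reads + 5) by day in p0-p1 (red), p2 (blue) and pMN (green), for the 4 courses from left to right, with WT above and MUT below, where WT is NFIAn up to day 9 and NFIAp on day 11. The p0-p1 line rises away from flat lines in the first course and from rising ones in the second, stays level over falling lines in the third and falls more slowly than the others in the last.

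The rise in MUT p0-p1 was tested over all regions. From day 5 to day 11, 3567 regions, or 67.0%, rose in MUT p0-p1 by at least 1 at an adjusted p under 0.05, against 24.1% of all intervals, and 254, or 4.77%, fell, against 17.4%. The median change was 1.44, against 0.05 for all intervals. In MUT p2, 969 regions, or 18.2%, rose, against 22.4%, and 582, or 10.9%, fell, against 17.9%. In MUT pMN, 844, or 15.9%, rose, against 19.7%, and 585, or 11.0%, fell, against 19.5%. All 4 shares lay below the background, and the median changes were 0.25 in p2 and 0.21 in pMN. The difference between populations was tested as an interaction with both p2 and pMN: 1741 regions, or 32.7%, had a larger change in p0-p1, against 4.36% of all intervals, and 0 a smaller one, against 1.37%. The count of 1741 was 1036 without MUT day 11 p0-p1 replicate 1, and edgeR gave 759 larger and 0 smaller changes. limma's unadjusted p was under 0.05 for 2908 regions, whatever the direction.

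The rise was spread over the days after day 5. The median over the regions of the MUT p0-p1 group mean of log2(normalised reads + 5) was 3.53, 3.85, 4.54 and 5.11 on days 5, 7, 9 and 11. From day 9 to day 11, 1032 regions, or 19.4%, rose in MUT p0-p1, against 6.35% of all intervals, and 135, or 2.54%, fell, against 4.6%. The count was 406 without MUT day 9 p0-p1 replicate 1 and 488 without MUT day 11 p0-p1 replicate 1. From day 7 to day 9, 1053, or 19.8%, rose in WT p0-p1, against 5.5% of all intervals, and 98, or 1.84%, fell, against 5.27%. The median changes were 0.52 and 0.54. The 4 regions with the largest late rises, among those at or above the median level, were also higher on day 11 than on day 5 in MUT p2 or pMN.

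Interval_125689 had 15.4 and 28.1 normalised reads in MUT day 9 p0-p1 and 133, 116 and 143 on day 11, a rise of 2.38 ± 0.32 (limma adjusted p = 7.5e-08), and it stood at 71.4, 59.2 and 30.3 in MUT day 11 p2 and 59.9, 41.1 and 43.8 in pMN. The p0-p1 libraries of the 2 days did not overlap, and those of day 11 lay above p2 and pMN. Interval_28062 went from 20.2 and 19.9 to 126, 128 and 93.2 in MUT p0-p1, and Interval_142661 from 65.4 and 54.4 to 265, 244 and 267, rises of 2.25 ± 0.29 and 2.03 ± 0.27. Both lie in blocks of consecutive numbers. Interval_142661 also rose in MUT p2 over days 5 to 11, to 129, 107 and 76.1, but stood at 21.8, 27.4 and 28.9 in MUT day 11 pMN. Interval_127157 rose by 1.97 ± 0.29 in MUT p0-p1, from 32.7 and 38.0 to 190, 167 and 112, but p2 reached 141, 130 and 67.9 and pMN 147, 103 and 88.6. Its p0-p1 libraries overlapped the others, and its MUT day 11 difference was 0.45 ± 0.26 (limma adjusted p = 0.23).

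The 4 regions with the lowest MUT day 11 differences, among those at or above the median level, were lower on day 11 than on day 5 in MUT p0-p1 and p2. Interval_46265 had 25.4, 24.9 and 8.17 normalised reads in WT day 11 p0-p1 and 4.12 to 10.4 in p2 and pMN. In MUT it had 18.8, 19.7 and 20.6 in p0-p1, while the p2 libraries held 16.1, 11.5 and 20.2 and the pMN libraries held 47.9, 41.1 and 27.1. The p0-p1 libraries were thus below all of pMN, and the difference was -0.79 ± 0.25. It had been strong in all populations on MUT day 5, at 68.4 to 101, so its 3 populations fell from there at unequal rates.

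Interval_11666 had 453, 245 and 162 in WT day 11 p0-p1 and 59.8 to 138 in p2 and pMN, but 237, 153 and 228 in MUT p0-p1, while the p2 libraries held 239, 232 and 259 and the pMN libraries held 348, 313 and 339. Its MUT difference was -0.71 ± 0.21, with p0-p1 below all pMN libraries. Interval_111089 had 63.4, 52.5 and 40.8 in WT p0-p1 and 15.1 to 29.0 in p2 and pMN. In MUT it had 57.3, 60.9 and 55.5 in p0-p1, while the p2 libraries held 52.3, 57.3 and 55.0 and the pMN libraries held 93.7, 96.0 and 78.4, a difference of -0.58 ± 0.20. Interval_19184, which lies in a block of intervals lower in MUT, had a MUT difference of -0.52 ± 0.29. In the first 3, the MUT p2 and pMN libraries were higher than the WT ones on day 11 without overlap. Both choices favour this, since the regions were taken for low WT and high MUT p2 or pMN against p0-p1. The NFIA fraction differs between the genotypes as well, so nothing is read from this lack of overlap.

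The regions were also compared between p2 and pMN and between the NFIA fractions. On MUT day 11, 166 regions, or 3.12%, were called higher in p2 than in pMN, against 2.86% of all intervals, and 5, or 0.0940%, lower, against 0.654%. The first share lies near the background and is no result about the regions. The median difference between p2 and pMN was 0.06 in MUT. On WT day 9, 34 regions, or 0.639%, were higher in the NFIAp than in the NFIAn fraction of p2, against 1.14% of all intervals, and 80, or 1.50%, lower, against 2.61%. The first count was 138 without the 3 libraries named above, 137 without p2 NFIAp replicate 2 alone, and 16, 22 and 18 without NFIAp replicate 3, NFIAn replicate 2 and NFIAn replicate 3. No share of all intervals stands beside these counts, so the place of the regions against the background is not settled for p2. The count of 80 is given only with p2 NFIAp replicate 2 included. In pMN 1 region was higher in NFIAp, against 0.0122% of all intervals, and 0 lower, where the background was also 0. At an unadjusted p under 0.05 limma gave 273 regions in either direction, which is no result about the regions without a background share. After adjustment edgeR gave 1 higher. No NFIAp library of p0-p1 on day 9 was analysed here, so the fractions could not be compared in that population.

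Few intervals of any kind were called between the genotypes in p0-p1 on day 9, when both were NFIAn. There, 3 regions, or 0.0564%, were lower in MUT, against 0.151% of all intervals, and 5, or 0.0940%, were higher, against 0.272%, with a median difference of -0.03. With the replicate number as a block the count of lower regions was 10, and 13 with a block within genotype and day. At an unadjusted p under 0.05 limma had 397 in either direction, which is no result about the regions without a background share. After adjustment edgeR gave 2 lower and 20 higher. The count of 3 ranged from 0 to 6 when 1 library was left out. Between MUT day 11 and WT day 9, both NFIAn, genotype and day change together and cannot be told apart. The regions in MUT p0-p1 on day 11 were above WT day 9 by a median of 0.47, against 0.02 for all intervals. Of them 782, or 14.7%, were called higher, against 7.34%, and 61, or 1.15%, lower, against 1.96%. The first count was 496 without MUT day 11 p0-p1 replicate 1, 1254 without replicate 3 and 1312 with edgeR. Interval_125249 was among the highest, at 163, 192 and 144 normalised reads in MUT day 11 p0-p1 against 32.9, 15.4 and 22.7 in WT day 9, a difference of 2.62 ± 0.31 (limma adjusted p = 1.5e-09). Interval_125689, described above, differed by 2.53 ± 0.29.

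The lowest were regions of the closing course. Interval_127406 had 25.7, 21.5 and 16.1 in MUT day 11 p0-p1 and 119, 246 and 204 in WT day 9 p0-p1, a difference of -2.86 ± 0.26 (limma adjusted p = 8.3e-13). Interval_68708 had 23.1, 21.5 and 32.2 against 89.3, 160 and 137, a difference of -2.11 ± 0.31 (limma adjusted p = 2.6e-07). In both the libraries did not overlap. Interval_127406 was strong on day 5, and in MUT p0-p1 it fell by 5.82 ± 0.26 on the log2 scale from day 5 to day 11 (limma adjusted p = 5.1e-29).

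Other intervals with a WT day 11 difference of at least 1 were set beside the regions in MUT. Of the 1688 regions already higher on WT day 5, 18.0% were called on MUT day 5, 22.3% on day 7, 31.9% on day 9 and 62.1% on day 11. Of the 648 that were higher in pMN on WT day 5, 0% were called on MUT day 5, 0.463% on day 7, 4.48% on day 9 and 36.4% on day 11. The shares of all intervals were 0.796%, 0.87%, 1.18% and 3.21% on these days. The 5321 regions stood between them on all 4 days, at 0.0564%, 1.43%, 10.4% and 46.6%. The values of 0%, 0.463% and 0.0564% are below the share of all intervals. These lists do not share intervals and were split by WT day 5 values, so the shares are descriptions and their differences were not tested.

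Most of the regions were weak. Those with a mean under 10 normalised reads over all libraries numbered 1939, which is 10.3% of all such intervals, and 53.3% of them were called on MUT day 11, against 8.09% of all intervals of that level. At a mean of 100 or more there were 241, or 0.653% of such intervals, and 30.7% of them were called, against 0.824%. The constant 5 shrinks differences of weak intervals, and a pseudocount of 20 left 778 of the 5321 called on MUT day 11. The regions lay along the whole numbering, with 270 to 407 in each of 15 full bins of 10000 consecutive numbers.

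Some regions had a neighbour in the set. A member with the next or the previous number existed for 686 regions, or 12.9%, and for 6.63% of all intervals. There were 299 runs of 2, 25 of 3, 2 of 4 and 1 of 5. The longest, Interval_128801 to Interval_128805, was made of unequal regions. Interval_128803 had 90.7, 63.6 and 49.3 normalised reads in MUT day 11 p0-p1 and 17.1 to 29.4 in p2 and pMN, a difference of 1.35 ± 0.29 (limma adjusted p = 0.00022). Interval_128801 had 14.5, 15.2 and 8.96 in MUT day 11 p0-p1 and 0 to 3.67 in p2 and pMN, and was called as well, at 1.31 ± 0.27. Interval_128804 had 98.5, 48.9 and 49.0 in WT day 11 p0-p1 but 5.99, 7.16 and 4.48 in MUT, where p2 and pMN had 1.87 to 4.36. Its MUT difference was 0.40 ± 0.27 (limma adjusted p = 0.38). Whether consecutive numbers are neighbours in the genome is not given in the table.

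The edges of the rule cut through a continuum. Just inside a WT day 11 difference of 1, Interval_48673 and Interval_107500 had MUT day 11 differences of 0.95 and 1.03, and just outside it Interval_137001 and Interval_11847 had -0.14 and 1.11. Just inside a WT day 5 difference of 0.3, Interval_52956 and Interval_12157 had MUT day 11 differences of 1.31 and 0.92, and just outside it Interval_19727 and Interval_22882 had 2.05 and 1.27. These values are a description.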

How the data were processed

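The table holds 155738 consensus intervals in 71 libraries. The deposited values are signal, and their steps show read counts per interval divided by 1 factor per library, while no label states how the factor was set. In every library it matched a median-of-ratios size factor computed from the recovered reads, at a ratio of 1 to 1.00000002. Per the submitters' processing notes the build is mm10, while the aligner, peak caller and counting tool are not given in the sources used here. Dividing each library's values by their step gave whole reads for 100% of values within a tolerance of 0.01, and these reads give the depths and the edgeR test. In 2 columns the step lay near 1, at 1.0057 in MUT day 11 p2 replicate 1 and 0.9972 in WT day 9 NFIAn pMN replicate 2. Their values are not whole, such as 7.0399 and 9.9719 in Interval_143708, so these columns are scaled as well.

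The members and lists were chosen with earlier results of these data known. Values were analysed as log2(value + 5), which understates the changes of weak intervals. Intervals that reached 10 in 2 or more libraries entered 1 limma fit (version 3.58.1, R 4.3.3) with a mean per group and 45 residual degrees of freedom, and Benjamini-Hochberg adjustment ran over 155734 intervals in each of 17 comparisons. A call needed an adjusted p under 0.05 and a log2 difference of at least 1. Where p0-p1 was set against both p2 and pMN, both had to pass, and the smaller difference and larger p are printed. edgeR 4.0.16 was the other tool. Errors after ± are standard errors of the fit, from a spread per interval that all groups share. On MUT day 11 a fit to only the groups compared called 2389 of the 4909 regions in it. The scripts were tested on simulated data.

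Regions were named by rule: the 4 with the largest WT day 11 difference, the 4 with the largest and the 4 with the lowest MUT day 11 difference, the 4 with the largest WT day 9 difference, the 4 with the largest MUT p0-p1 rise from day 9 to day 11, and the 2 extremes each way between MUT day 11 and WT day 9 p0-p1, all at or above the median level. Beside these stand the intervals nearest the thresholds and the longest run. The 4 with the largest MUT day 11 difference were taken only from regions called there whose p0-p1 libraries all lay above all p2 and pMN libraries. Those for WT day 9, for the late rise and for the extremes had to be called in that comparison. Same-numbered libraries deviated together (every residual correlation over 0.1, lowest 0.113) in WT day 7, MUT day 5, MUT day 7 and the WT day 9 p2 fractions, where the replicate block was tried as a paired fit. WT day 5 (0.175 to 0.240) and MUT day 9 (0.218 to 0.275) also stayed above 0.1 but have only 2 replicate numbers, fewer than the 3 asked for here. Alternatives changed the pseudocount, filter, normalization, tool, samples, rule, blocks and single libraries. Intervals have no position, gene or sequence in the table, so these are not reported here.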

Additional observations from a re-analysis of the deposited data

Results flagged for a closer look

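The change from day 5 to day 11 in MUT differed between populations, by a test of the difference itself: 1741 of the 5321 regions had a larger change in p0-p1 than in both p2 and pMN, against 4.36% of all intervals. The count was 1036 without MUT day 11 p0-p1 replicate 1 and 759 with edgeR. Single libraries that stand apart were looked for by leaving out each in turn, since all groups have 2 or 3 libraries.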

How the results depend on the processing

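Regions named for MUT day 11, WT day 9, the late rise or MUT day 11 against WT day 9 were rerun in that comparison. There they kept their direction and their side of the threshold under every alternative run. The region named only for WT day 11, the intervals nearest the thresholds and the longest run were not rerun. Other comparisons of the named regions were not followed through all alternatives. A pseudocount of 20 lowered all 17 counts: to 778, 116, 5 and 0 for p0-p1 above p2 and pMN on MUT days 11, 9, 7 and 5, and to 165 and 11 on WT days 9 and 7. It gave 1809 rises in MUT p0-p1, falls of 380 in p2 and 362 in pMN, 774 for the interaction, 205 late rises in MUT, 160 rises in WT, 59 for p2 above pMN, 2 and 0 for the fractions, 0 for MUT below WT on day 9 and 213 for MUT day 11 above WT day 9. A pseudocount of 1 gave 289 on MUT day 9, 6 on MUT day 5, 1121 for the interaction, 603 late rises, 56 for the p2 fractions and 1 for MUT below WT. A fit to only the groups compared gave 278 on MUT day 9, 2 and 0 for the fractions and 8 for MUT below WT. Quantile normalization gave 6 on MUT day 5 and 11 for MUT below WT. edgeR gave 12 on MUT day 5, beside 11 in the opposite direction where limma gave 3 and 5, and 759 for the interaction, 95 for the p2 fractions and 1312 for MUT day 11 above WT day 9. Without the 3 doubted libraries the p2 fractions gave 138 and MUT below WT 5, and without the blocks the pMN fractions and MUT below WT gave 0. A WT day 11 minimum of 1.5 left 3003 regions. Which regions were chosen also depended on the pseudocount used in the rule. A pseudocount of 20 there found 3614 regions, which held only 57.6% of the main set. A pseudocount of 1 found 5752, which held 81.8% of the main set, and 75.6% of the 5752 belonged to it. The rule on quantile normalized values found 4655 regions, with 82.0% of the main set. On values scaled to equal library totals it found 6064, with 99.2%. The cause of these shifts was not tested.

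With the replicate number as a block, MUT below WT on day 9 gave 10, and with a block within genotype and day it gave 13 and the pMN fractions 19. No count in which the numbers pair the libraries moved by more than 1.5 times. In the other comparisons the lowest correlation of same-numbered libraries was 0.042.

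Leaving out 1 library at a time gave 4265 to 6429 regions by the rule. The counts ranged from 1781 to 2925 on MUT day 11, 60 to 652 on MUT day 9, 41 to 108 on MUT day 7, 1 to 9 on MUT day 5, 692 to 1129 on WT day 9 and 69 to 249 on WT day 7. Changes in MUT ranged from 3209 to 3780 (p0-p1), 564 to 604 (p2), 580 to 602 (pMN), 1036 to 1969 (interaction) and 406 to 1461 (late rises), and WT rises from 895 to 1237. The others ranged from 141 to 193 (p2 above pMN), 16 to 137 (p2 fractions), 0 to 1 (pMN fractions), 0 to 6 (MUT below WT) and 496 to 1254 (MUT day 11 above WT day 9).

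Without both day 11 p0-p1 replicate 1 libraries, an alternative chosen after seeing the data, 1715 regions, or 42.9% of the 4000 members that were found without the WT library and passed the filter in that fit, were called on MUT day 11, and the interaction gave 1152, late rises 465, MUT below WT 6, the p2 fractions 22 and MUT day 11 above WT day 9 gave 425. Over the 4062 regions also found without the WT library alone, the p2 fractions gave 22.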
